A study of Bos taurus with 8 samples.

Results

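The secreted products by which the ruminant trophoblast acts on the mother were examined in bovine blastocysts cultured with or without buthionine sulfoximine (BSO). They were interferon tau (IFNT), the pregnancy-associated glycoproteins PAG1, PAG2, PAG11 and PAG12, and the trophoblast Kunitz domain proteins TKDP1 and TKDP2. Members were taken as every array probe whose platform annotation gives 1 of these 7 symbols, which found 8 probes of the 43794 gene probes on the array, 1 for each gene and 2 for PAG11. The genes were proposed with their BSO ratios already known, so those ratios are given as descriptions without a test.

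BSO embryos were grown with 0.4 mM BSO from day 3 to day 5 of culture and with 0.01 mM from day 5 to day 7. BSO inhibits glutamate-cysteine ligase, which starts glutathione synthesis. Control embryos, labelled Control-Oxid, had the same synthetic oviductal fluid medium in the same steps without BSO. Both came from in vitro matured and fertilized oocytes of slaughterhouse ovaries and were collected as blastocysts 196 h after fertilization. Each treatment had 4 pools of 10 blastocysts, so no value belongs to a single embryo. The 8 arrays each held BSO RNA in one dye and control RNA in the other, with BSO in Cy5 on 4 arrays and in Cy3 on 4. The labels do not say whether pools came from separate cultures, so the spread between replicates may be technical.

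IFNT is the signal for maternal recognition of pregnancy in cattle. Trophectoderm, the outer epithelium of the blastocyst, secretes it, and in the uterus it prevents the loss of the corpus luteum. PAGs are secreted relatives of aspartic proteinases, of which many bind peptides without cutting them. An ancient PAG group, including PAG2, PAG8, PAG10, PAG11 and PAG12, is made across the trophectoderm, whereas the modern group is made mainly by binucleate trophoblast cells that appear after the blastocyst stage. TKDPs join a Kunitz domain, the fold of a class of serine proteinase inhibitors, to trophoblast-specific stretches, and ruminants make them around the time of implantation.

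The symbols do not all name a single gene. In the RefSeq genes of the ARS-UCD2.0 assembly, used for names only, IFNT is a synonym of 2 genes, IFNT2 and IFNT3, and the probe may measure both. PAG1 is there the symbol of a gene that does not lie among the other PAG genes, and it is also a synonym of a gene that does lie among them, LOC281964. The human PAG1 symbol belongs to a membrane adaptor protein of immune cells. Which of these the PAG1 probe targets is not given in the sources used here. PAG2, PAG11, PAG12, TKDP1 and TKDP2 are current symbols, but close relatives within each family may cross-hybridise, and the probe sequences were not analysed here.

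Ratios below are the deposited log2 values of BSO over control, averaged over the 2 arrays of opposite dye orientation that make up each of 4 replicates. Raw intensity is the brightness of a spot as scanned, and a spot was counted as above background when it exceeded the 95th percentile of the negative control spots of its array and dye. All 8 probes were kept by the filter on dim spots, which kept 36995 probes in all, but their signal differed widely against that background limit. IFNT lay at 19.8 to 339 times the limit over its 16 spots, TKDP1 at 2.34 to 67.6 times, PAG2 at 2.15 to 35 times and TKDP2 at 5.05 to 26.4 times. These 4 probes were more than 2 times the limit in every spot. PAG12 ranged from 1.12 to 11.2 times the limit. The PAG11 probe EMBV3_27136, called the brighter PAG11 probe below, ranged from 0.842 to 6.57 times. The other PAG11 probe, EMBV3_16858, stayed between 1.02 and 1.96 times, and PAG1 between 0.873 and 1.13 times. PAG1 was above the limit in 10 of its 16 spots, so its ratio is that of signal at background.

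**Figure D1:**
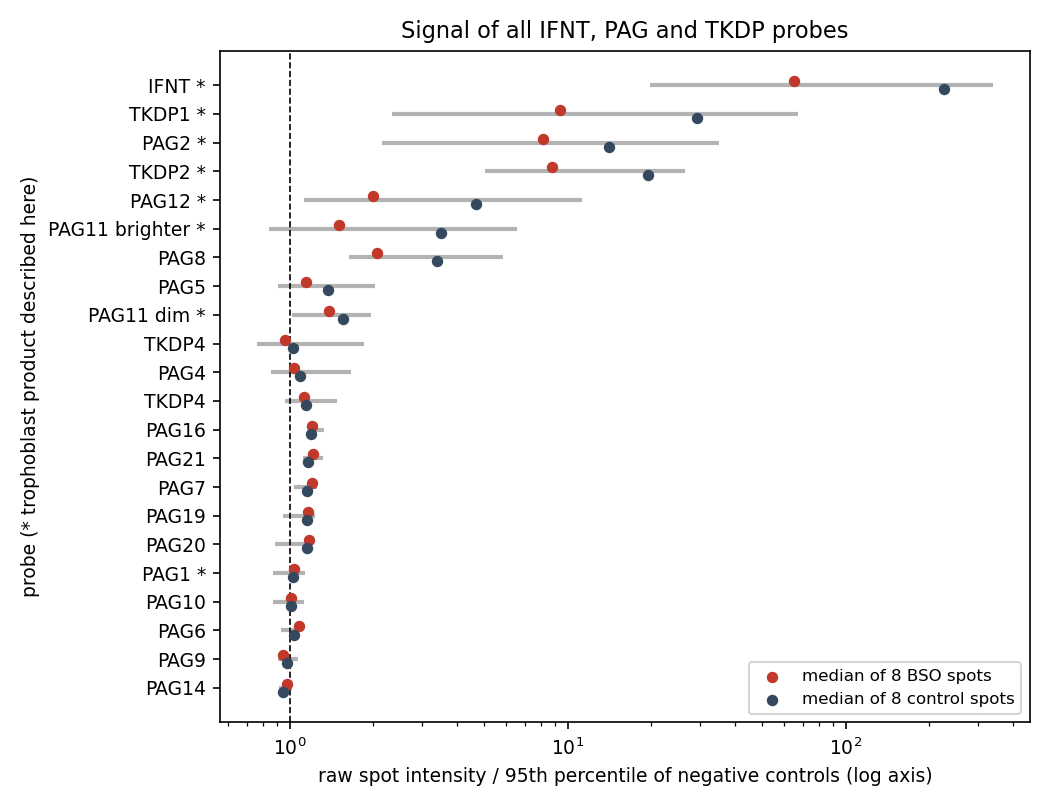
Raw intensity of the 22 probes named IFNT, PAG or TKDP, divided by the 95th percentile of negative controls of the same array and dye (log axis). Grey lines span the 16 spots of a probe and points are the medians of 8 BSO spots and 8 control spots. IFNT, TKDP1, PAG2 and TKDP2 lie above 2 times the limit in every spot, and PAG1 lies at the limit.

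In BSO blastocysts 6 of the 8 probes had ratios below 0 in all 4 replicates. They were IFNT, TKDP1, PAG2, PAG12, TKDP2 and the brighter PAG11 probe. Over all kept probes 17% were lower and 21.3% higher in all 4 replicates. At least a 1.5-fold lower mean was found for 5 of the 8, against 1.19% of all kept probes, while 0.695% were at least 1.5-fold higher. The median ratio of the 8 probes was -0.75, beside 0.019 over all kept probes. Because the members were chosen on this contrast, these shares describe them and support nothing further. In whole blastocysts, fewer trophectoderm cells and less RNA per cell cannot be told apart.

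IFNT had ratios of -1.90, -1.27, -0.19 and -1.04 in replicates 1 to 4. Its mean was -1.10 ± 0.71 (SD, n = 4), or 2.14-fold lower in BSO blastocysts. Replicate 3 stood well above the others, and both of its arrays gave that value, at -0.18 with BSO in Cy5 and -0.19 with BSO in Cy3. Replicate 1 was lowest in both orientations, at -2.16 and -1.64. Without replicate 3 the mean was -1.40, and without replicate 1 it was -0.83.

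IFNT was bright enough to approach the brightest gene spots of its arrays. Its raw intensity was 4026 to 27472 in the BSO spots of the 8 arrays, with a median of 11355. In the control spots it was 9952 to 33024, with a median of 28092. In 3 control spots, all on slide 25, it reached at least 80% of the brightest gene spot of the array and dye, with 86.8% as the highest, while the highest BSO spot reached 67.9%. The median pixel of the IFNT spots was at most 41093, which lay well below the top median pixel of the scanner values. By this measure no IFNT spot was at the top of the scanner range. Intensities near the top of the range can be compressed, and whether this affected the IFNT ratio was not tested.

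PAG2 had ratios of -0.25, -1.36, -0.015 and -1.52 in replicates 1 to 4, with a mean of -0.79 ± 0.76 (SD, n = 4), or 1.72-fold lower. In replicate 3 its arrays differed in sign, at -0.26 with BSO in Cy5 and 0.23 with BSO in Cy3. Replicates 2 and 4 were far below replicates 1 and 3, and the SD was almost as large as the mean. PAG12 had ratios of -0.19, -0.90, -0.52 and -1.57, with a mean of -0.79 ± 0.59, or 1.73-fold lower. It shared with PAG2 the 2 lowest replicates, 4 and 2. The labels give no reason for this shared order, and a common target of the 2 probes was not tested.

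The probes of PAG11 did not give the same picture. The brighter probe had ratios of -1.16, -0.41, -0.15 and -0.56, with a mean of -0.57 ± 0.43 (SD, n = 4), or 1.48-fold lower. Its lowest replicate was 1 and its highest 3, as for IFNT, whereas PAG2 and PAG12 were lowest in replicate 4. Without replicate 1 the mean was -0.37. The dim probe had ratios of 0.15, 0.067, -0.038 and -0.15, with a mean of 0.0084 ± 0.1285, and it never reached 2 times the background limit. PAG1, at background, had ratios of -0.052, 0.19, -0.13 and 0.17 and a mean of 0.044 ± 0.159.

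TKDP1 had ratios of -0.88, -0.56, -1.76 and -1.14 in replicates 1 to 4, with a mean of -1.08 ± 0.50 (SD, n = 4), or 2.12-fold lower. Its order ran against that of IFNT, since its lowest ratio was in replicate 3, where IFNT had its highest. Both dye orientations gave alike means, -1.03 with BSO in Cy5 and -1.14 with BSO in Cy3. TKDP2 had the tightest replicates of the 6 lower probes, at -0.74, -0.96, -0.71 and -0.42, with a mean of -0.71 ± 0.22, or 1.64-fold lower.

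The TKDP2 mean averaged both dye orientations, which disagreed. With BSO in Cy5 its ratios were -1.46, -1.74, -1.57 and -1.22 in replicates 1 to 4. With BSO in Cy3 they were -0.027, -0.19, 0.14 and 0.38, so that the mean was 0.078 and the sign turned. The same gap was present on slide 25 alone, which held arrays of both orientations. The tight replicates of TKDP2 thus hold a pair of values that disagree within each replicate.

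**Figure D2:**
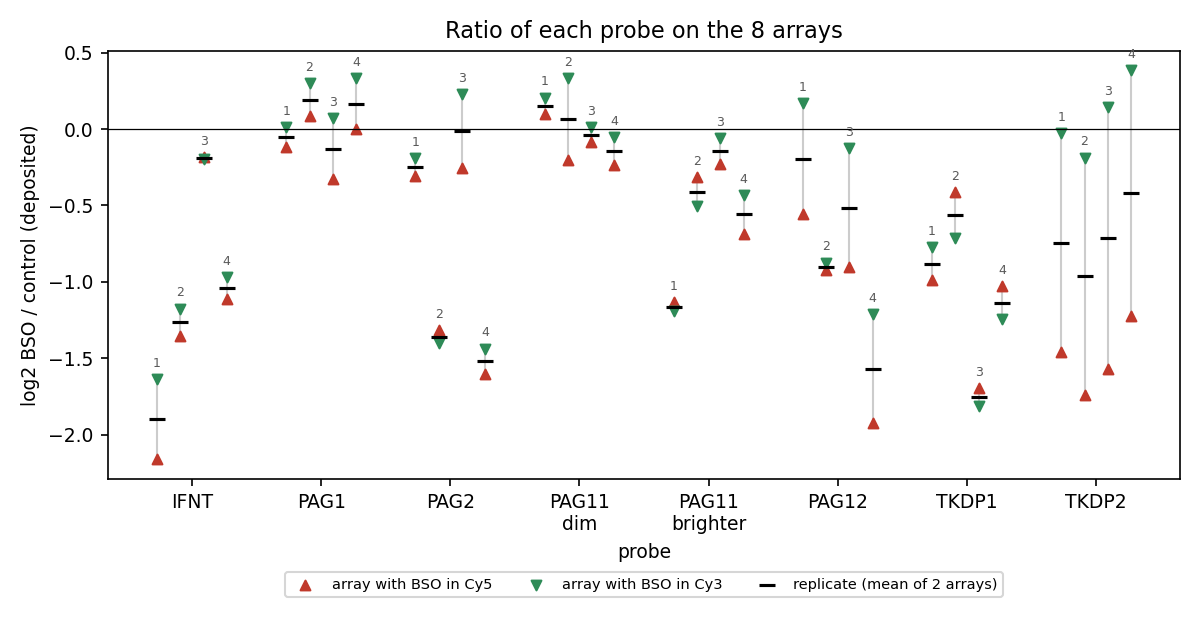
Deposited log2 ratio of BSO over control for each of the 8 probes. Triangles are single arrays (up, BSO in Cy5; down, BSO in Cy3), black dashes are the mean of both arrays of a replicate, and digits give the replicate. The orientation means of IFNT, PAG2, TKDP1 and the brighter PAG11 probe differ by -0.21 to 0.11, whereas those of TKDP2 differ by -1.58 on average (BSO in Cy5 minus BSO in Cy3).

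The difference between the dye orientations did not enter the choice of the genes and was tested over all kept probes with limma, with the replicate as a block. It passed an adjusted p of 0.05 for 52.6% of all kept probes and for 4 of the 8 here. TKDP2 had a difference (BSO in Cy5 minus BSO in Cy3) of -1.58 ± 0.07 (limma SE, 8 arrays), at a limma adjusted p of 1.81e-07. PAG12 had a difference of -0.57 ± 0.11 and an adjusted p of 0.00177, with means of -1.08 with BSO in Cy5 and -0.51 with BSO in Cy3. PAG1, at -0.27 ± 0.07, and the dim PAG11 probe, at -0.23 ± 0.08, also passed, with limma adjusted p of 0.00706 and 0.0335. In ratios made from the scanner values with normexp and loess, the dim PAG11 probe did not pass, at -0.19 with a limma adjusted p of 0.0694. The differences of IFNT (-0.21 ± 0.08), PAG2 (-0.17 ± 0.09), the brighter PAG11 probe (-0.043 ± 0.080) and TKDP1 (0.11 ± 0.08) did not pass, at limma adjusted p of 0.0601, 0.122, 0.674 and 0.315. From the scanner values the IFNT difference was 0.024, with the sign turned, at a limma adjusted p of 0.841. A dye difference of either sign cancels in the replicate mean only if it is the same on both arrays. For replicates 1 and 2 the orientations also lay on 2 different slides, so slide and orientation cannot be told apart there.

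The BSO ratio was also compared between the slides, the only batch the labels name. Slide 25 held the arrays of replicates 3 and 4, and 2 other slides held those of replicates 1 and 2. IFNT averaged -0.61 on slide 25 and -1.58 on the other slides. TKDP1 went the other way, at -1.45 on slide 25 and -0.72 on the other slides. On slide 25 PAG12 averaged -1.04, PAG2 -0.77, TKDP2 -0.57 and the brighter PAG11 probe -0.35. On the other slides PAG12 averaged -0.55, PAG2 -0.80, TKDP2 -0.85 and the brighter PAG11 probe -0.79. All 6 were below 0 in both slide sets, which follows from their being below 0 in all 4 replicates. The differences of 0.97 ± 0.40 for IFNT and -0.72 ± 0.26 for TKDP1 (limma SE, 4 replicates) did not pass, at limma adjusted p of 0.682 and 0.665, and the other 6 probes had adjusted p of 0.683 to 0.995. In this test 0% of all kept probes passed, and 7.63% were at an unadjusted p under 0.05. Each slide set held only 2 replicates.

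Levels in the single pools were obtained from the scanner values of each dye, normalized to log2 intensity and averaged over the 2 arrays taken to share a pool. IFNT had levels of 12.9, 12.0, 14.6 and 13.8 in BSO pools 1 to 4, against 14.7, 13.4, 14.9 and 14.9 in control pools. The groups overlapped, because BSO pool 3 lay above control pool 2. TKDP1 had levels of 11.6, 8.82, 11.0 and 10.1 in BSO pools, against 12.5, 9.46, 12.7 and 11.2 in control pools. It varied more between pools of 1 treatment than between treatments, with a range of 2.82 over BSO pools and 3.21 over control pools.

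PAG2 had levels of 10.4, 8.67, 10.8 and 10.5 in BSO pools, against 10.6, 10.1, 10.9 and 12.0 in control pools. PAG12 had levels of 8.30, 7.42, 8.96 and 8.80 in BSO pools, against 8.54, 8.30, 9.49 and 10.3 in control pools. In both, control pool 4 was the highest of all 8 pools and BSO pool 2 the lowest. The brighter PAG11 probe had levels of 7.31, 6.81, 9.22 and 8.53 in BSO pools, against 8.51, 7.25, 9.41 and 9.05 in control pools. Pools 3 and 4 of either treatment, on slide 25, were all higher than pools 1 and 2 of either treatment for this probe.

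TKDP2 had levels of 10.7, 10.6, 10.3 and 10.5 in BSO pools, against 11.5, 11.6, 11.0 and 10.9 in control pools. It was the only one of the 8 probes whose BSO pools all lay below its control pools, as did 4.35% of all kept probes (the reverse order held for 2.42%), and it was the probe with the largest dye difference of the 8. PAG1 and the dim PAG11 probe stayed between 7.02 and 7.84 in all pools. Replicate 2 was the lowest in the BSO pools and also in the control pools for 6 of the 8 probes, all but PAG1 and TKDP2. For 7 of the 8, all but TKDP2, the range over the 4 control pools was wider than the mean difference between treatments.

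**Figure D3:**
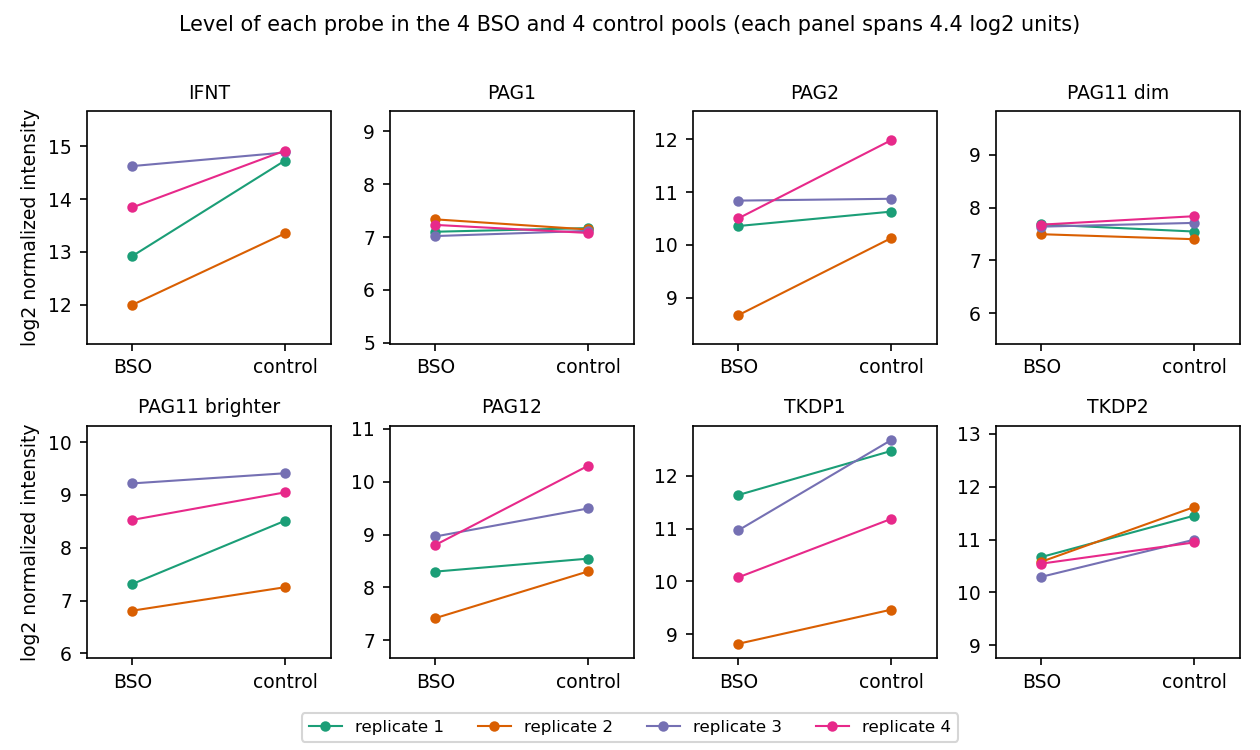
Normalized log2 intensity of each probe in the 4 BSO pools (left of each panel) and the 4 control pools (right), with lines joining the pools of a replicate. Every panel spans the same number of log2 units. The lines of IFNT, TKDP1, PAG2, PAG12, TKDP2 and the brighter PAG11 probe all run lower on the BSO side, and pools of replicate 2 lie lowest for 6 of the 8 probes.

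The array carries 14 further probes for 13 other genes of these families, of which 12 probes were kept. Except for PAG8, they stayed close to background, with a highest spot between 1.02 and 2.03 times the limit. PAG8 reached 5.87 times. It had a mean ratio of -0.43 ± 0.14 (SD, n = 4) and was lower in all 4 replicates, with a limma adjusted p of 0.0636. Its means were -0.82 with BSO in Cy5 and -0.050 with BSO in Cy3, a gap in the direction of that of TKDP2. Among PAGs, the probes that reached more than 2.03 times the limit in any spot were thus those of PAG2, PAG12, PAG8 and the brighter PAG11 probe, all of the ancient group, a grouping made here after the values were seen. The ancient PAG10 did not exceed 1.12 times.

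With the brightest kept probe for each gene, 11 of these 13 genes were measured, and 0 passed an adjusted p of 0.05 with limma. Of all kept probes 0.595% passed (0.332% lower and 0.262% higher), and unadjusted p was under 0.05 for 13.4% on the lower side and 12.6% on the higher side. At that unadjusted p, PAG5, at -0.17 ± 0.075, and PAG8 were lower, and PAG7, at 0.16 ± 0.054, and PAG21, at 0.097 ± 0.033, were higher (SD, n = 4). The PAG5 means were 0.31 with BSO in Cy5 and -0.64 with BSO in Cy3, so that the sign turned with the dye. The remaining means were -0.029 for PAG4, -0.0078 for TKDP4, 0.025 for PAG10, 0.052 for PAG16, 0.057 for PAG19, 0.070 for PAG6 and 0.13 for PAG20. Their median was 0.052. The PAG4 mean also hides a turn of sign, at 0.64 with BSO in Cy5 and -0.70 with BSO in Cy3. PAG9 and PAG14 had no kept probe. TKDP4 had a second probe at -0.16, with means of 0.35 with BSO in Cy5 and -0.68 with BSO in Cy3.

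Factors that act on IFNT or on trophectoderm, and other secreted products of the trophoblast, came from lists drawn up with earlier results of these data known. Together with the family genes, 41 of 57 listed genes were measured, and 0 passed with limma. Unadjusted limma p-values under 0.05 were found for 7 lower and 5 higher genes. The shares of all kept probes were 13.4% lower and 12.6% higher. In a fit of all 8 arrays with the replicate block, 8 of the 41 passed, beside 4463 of the 36995 kept probes. The 8 were ETS2, DLX3, HAND1, JUNB, FST and PAG8, which were lower, and ELF5 and JUND, which were higher. HAND1, JUNB, FST and ELF5 had median raw intensities of at most 270, near background. HAND1 and JUNB were above the limit in 7 of 8 BSO spots. HAND1 also averaged 0.066 with BSO in Cy5 and -0.43 with BSO in Cy3.

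ETS2, a transcription factor that drives the IFNT promoter, had ratios of -0.58, -0.64, -0.21 and -0.12 in replicates 1 to 4. Its mean was -0.39 ± 0.26 (SD, n = 4), with a limma adjusted p of 0.123. CDX2, the trophectoderm regulator that also acts on IFNT, was at 0.025 ± 0.130 with an adjusted p of 0.808 and was dim. DLX3, a homeodomain factor that acts on IFNT with ETS2, had ratios of -0.52, -0.72, -0.35 and -0.54 and a mean of -0.53 ± 0.15, with a limma adjusted p of 0.0567. TFAP2A, an AP-2 factor of trophoblast, was at -0.48 ± 0.54, with replicate 2 at -1.14 and replicate 3 at 0.024. FOS, a component of AP-1, was at -0.42 ± 0.50, with replicate 1 at -0.97, and its other kept probe was at 0.17. Over the 20 measured regulators the median was -0.051, with 12 below 0 and 8 above.

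Other secreted products had ratios of both signs. PTGS2, which makes the precursor of the prostaglandins secreted by the conceptus, was at -0.44 ± 0.44 (SD, n = 4) and lower in all 4 replicates, from -1.05 in replicate 4 to -0.11 in replicate 3, with a limma adjusted p of 0.201. Its other kept probes were at -0.40 and 0.0032. FST, the activin-binding protein follistatin, was at -0.16 ± 0.041 with an adjusted p of 0.0924, close to background. APOA1, an apolipoprotein, was at 0.15 ± 0.66, with replicates between -0.66 and 0.84. Placental lactogen CSH2 was at 0.058, and the prolactin-related PRP4 and PRP9 were at 0.051 and 0.017. Over the 10 measured genes the median was 0.034. All of them but PTGS2 and APOA1 had median raw intensities of at most 234, where the background limits were 96.4 to 236. Their ratios are thus those of signal near background and do not show unchanged RNA.

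**Figure D4:**
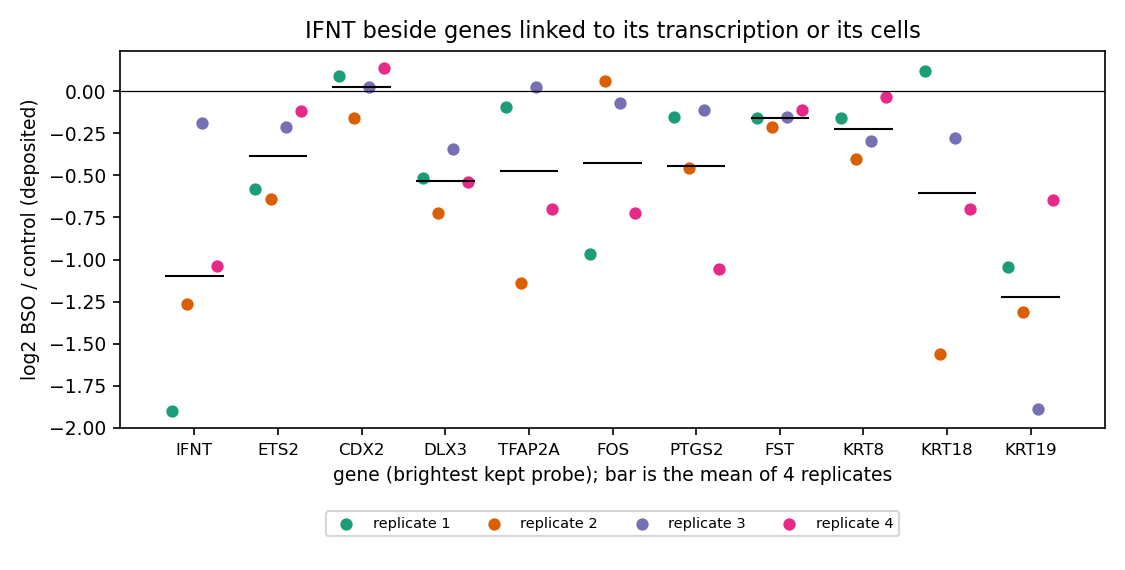
Deposited log2 ratio of BSO over control in each of the 4 replicates for IFNT, for regulators and other secreted products, and for the keratins KRT8, KRT18 and KRT19. Of the 10 trophectoderm markers, 7 of which had means below 0, only the keratins and CDX2 are shown. ENPEP, at 1.00, and TFAP2C, at 0.15, are not shown. Points are replicates and black bars are means. DLX3 lies below 0 in every replicate, CDX2 lies around 0, and IFNT and KRT19 have the lowest means.

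Markers of trophectoderm itself were all above background in every spot, for 10 of 10 genes. Their mean log2 level over the list was 11.6 to 12.2 in BSO pools and 12.0 to 12.3 in control pools. The median ratio was -0.14, with 7 of the 10 below 0, and 0 passed with limma. Unadjusted limma p was under 0.05 for 3 lower genes and 1 higher gene, beside 13.4% and 12.6% of all kept probes. KRT19, a simple-epithelium keratin, was at -1.22 ± 0.52 (SD, n = 4), KRT18 at -0.60 ± 0.72 and KRT8 at -0.22 ± 0.16, while the peptidase ENPEP was at 1.00 ± 0.46. The raw intensity of KRT8 had medians of 35996 in BSO spots and 37631 in control spots, near the top of the range.

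The other cell types showed these levels beside the trophoblast products. Hypoblast markers, 7 of 8 measured, had mean levels of 10.8 to 11.1 in BSO pools and 11.1 to 11.3 in control pools and a median ratio of -0.14. Epiblast markers, 8 of 8, had levels of 8.24 to 8.75 in BSO pools and 8.29 to 8.99 in control pools and a median ratio of -0.14. Cumulus and granulosa markers, 8 of 9, had levels of 7.80 to 8.00 in BSO pools and 7.75 to 7.96 in control pools and a median ratio of 0.073. Blood markers, 4 of 4, had levels of 7.49 to 7.64 in BSO pools and 7.51 to 7.83 in control pools and a median ratio of -0.0056. In every one of the 16 spots, 5 hypoblast, 5 epiblast, 4 cumulus and 4 blood genes were above the background limit. The blood genes were close to it, with median raw intensities of 156 to 258. In each of these lists 0 genes passed with limma. Unadjusted limma p was under 0.05 for 4 hypoblast, 4 epiblast, 1 cumulus and 0 blood genes, all lower, beside 13.4% of all kept probes. Of these genes, SOX2, FGF4, SALL4, APOA2 and FSHR had median raw intensities of at most 206, near background. GATA4, HNF4A and LAMA1 were brighter, with medians of at least 2514. NODAL averaged -0.88 with BSO in Cy5 and 0.34 with BSO in Cy3. APOA2 and FSHR also changed sign between the orientations. The part of the marker differences in the lower trophoblast products was not tested.

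Over the 8 arrays, the named genes whose ratios most resembled those of IFNT were PLA2G16, a phospholipase, with a Pearson r of 0.979, POLE2, a subunit of DNA polymerase epsilon, with 0.961, the actin regulator CFL2 with 0.959, UAP1 with 0.958 and GNPDA1 with 0.957. UAP1 and GNPDA1 are both enzymes of amino sugar metabolism. The likeness is in the order of replicates and not in the mean. PLA2G16 ran from -0.51 in replicate 1 to 0.25 in replicate 3, around a mean of -0.16 ± 0.31 (SD, n = 4), and POLE2 had a mean of 0.21 ± 0.17. The arrays form 4 pairs that are taken to share pools, which the labels do not state. The 8 points are then not independent, and these genes are the highest of many compared.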

How the data were processed

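For each of 8 arrays the authors deposited scanner intensity values, which per the file headers are raw means of the spot and its local background in Cy3 and Cy5, and 1 log2 value per probe. The submitters' processing notes name limma. The sources used here do not give how background and dye were corrected. A comparison with scanner ratios (Pearson r of 0.889 to 0.989 over probes) showed each deposited log2 column to be BSO over control, with medians between 0.0011 and 0.0131.

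Members and gene lists were chosen with earlier results of these data known. Arrays of opposite dye orientation at the same order within slides were averaged to 4 replicates. The labels do not state this pairing. Deviations from the orientation means correlated at 0.726 to 0.853 within pairs and at -0.027 at most between others. The deposited ratios were the main values, and scanner values were an alternative. Probes were kept if above the 95th percentile of 153 negative controls on at least 4 of 8 arrays in either treatment, which left 36995 of 43794. The mean of 4 replicates, the dye difference and the slide difference were tested with limma 3.58.1 in R 4.3.3 (lmFit, eBayes, Benjamini-Hochberg over kept probes, threshold 0.05), after checks on simulated data. Pool levels came from scanner values after normexp (offset 50), loess and Aquantile. The number of arrays limits the precision.

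The platform annotation gave 21790 probes 1 symbol, 0 several and 22004 none. RefSeq names (ARS-UCD2.0) matched 20025 of these symbols as current and updated 1524. Coordinates are left out because no build is named. Named genes were every member probe, all other genes of the 3 families, ETS2, CDX2, DLX3 and the 3 largest ratios in size of each other list, and the 5 genes most like IFNT over 8 arrays. JUNB, HAND1, ELF5 and JUND were named as the calls of a single fit, and KRT8, KRT18, KRT19, ENPEP, CSH2, PRP4 and PRP9 after their values were seen. So were the other trophectoderm markers, and the epiblast, hypoblast and cumulus genes at an unadjusted limma p under 0.05. Alternatives covered the source of ratios, background correction, normalization, dye orientation, slides, replicates, pairing and filters.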

Additional observations from a re-analysis of the deposited data

Results flagged for a closer look

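The IFNT level in control pool 2, at 13.4, lay far below the other control pools, at 14.7 to 14.9, relative to their range. It was the only such case among 24 sets of 4 values examined, of which chance flags about 1 in 20. TKDP2 differed by -1.58 between arrays with BSO in Cy5 and arrays with BSO in Cy3, with opposite signs of the means. PAG12 differed by -0.57 between these orientations, with both means below 0. PAG1 differed by -0.27 and the dim PAG11 probe by -0.23 (not past the threshold from scanner values), both near background. Of all kept probes, bright or dim, 52.6% passed the dye test. The dim PAG11 probe was also above 0 in replicates 1 and 2 and below 0 in replicates 3 and 4, a difference of -0.20 that did not pass the slide test.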

How the results depend on the processing

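The median ratio of the 8 probes stayed between -0.95 (BSO in Cy5 alone) and -0.53 (BSO in Cy3 alone) under all alternatives, and between -0.78 and -0.56 when each replicate was left out. Of 104 values of single probes under the alternatives, 102 moved by less than 1 SD between replicates. For many of these values that outcome was fixed in advance. The fits of all 8 arrays return the main means, and means over fewer of the 4 replicates cannot move by 1 SD. Only the scanner values and the single orientations could have moved that far. The exceptions were both TKDP2, at -1.50 with BSO in Cy5 alone and reversed at 0.078 with BSO in Cy3 alone. Counts over all probes were less stable. Against 220 probes past the adjusted threshold with limma, 0 passed with normexp and loess (8297 at an unadjusted p under 0.05), with median centring (8984), in replicates 1 and 2 alone (5257), in replicates 3 and 4 alone (6779) and without any 1 replicate (6567 to 9065). Without background correction 468 passed, of which 29.7% were higher, against 44.1% in the deposited values. In single orientations, where dye and treatment are confounded, 8739 (BSO in Cy5) and 4108 (BSO in Cy3) passed. All 8 arrays gave 4463 with the replicate block, at a correlation of 0.568 within pairs, and 8972 with no replicate block. Of the 41 listed trophoblast genes, 0 of which passed in the deposited values, the counts were 1 without background correction, 10 with BSO in Cy5 alone, 5 with BSO in Cy3 alone, 8 with the replicate block and 10 with no replicate block. The dye term passed for 19454 kept probes and for 4696 of the 8878 probes of the stricter filter. The cause of these shifts was not tested, apart from the fewer probes or samples that a setting holds. Signal over background limits PAG1 and the dim PAG11 probe. The PAG1 ratio carries no readable level. The dim PAG11 probe was above the limit in all 16 spots, but only at 1.02 to 1.96 times.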
